A study of Mus musculus with 16 samples.

Results

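The nuclear genes of respiratory complexes II to V were taken from the deposited gene table by name. They were the lines named *Sdha* to *Sdhd*, those whose name starts with *Uqcr*, *Cox4* to *Cox8* or *Atp5*, and *Cyc1* and *Cycs*, while 4 lines marked as pseudogenes, with 23 to 528 counts each over all samples, were left out. This gave 50 of 46078 lines: 4 for complex II, 10 for complex III, 1 for cytochrome c, 18 for complex IV and 17 for complex V. The RNA came from HSCs of wild-type B6.SJL origin. They were sorted from bone marrow as LSK SLAM cells (negative for lineage markers and CD48, positive for cKit, Sca1 and CD150). The sorted cells were divided by the level of MAC-1, the integrin CD11b/CD18. Steady-state (SS) HSCs came from untreated mice and gave 3 MAC-1- and 3 MAC-1low samples. The 4 week HSCs came from recipients given 8000 LSK cells after 900 cGy of irradiation, and they gave 3 MAC-1-, 4 MAC-1low and 3 MAC-1+ samples. SS MAC-1+ HSCs were not analysed here. The sources used here do not say that the samples of a population came from separate mice, so p-values measure the spread between these samples, which may be in part technical.

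The respiratory chain sits in the inner mitochondrial membrane. Complex II passes electrons from succinate to ubiquinone, complex III passes them on to cytochrome c, complex IV hands them to oxygen, and complex V, the ATP synthase, makes ATP from the proton gradient that the chain builds up. Complexes III, IV and V also hold subunits made from mitochondrial DNA, whereas complex II is built wholly from nuclear genes. HSCs are known for a low use of oxidative phosphorylation at rest and for raising it when they divide and differentiate.

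Total counts per sample ran from 13781278 to 28580658, and 13661 genes passed the filter on low counts and were tested. Among the members, 45 of 50 passed it, and the other 5 (*Cox6a2*, *Cox7b2*, *Cox8b*, *Cox8c* and a second line named *Uqcrc1*) had 0 counts in all 16 samples, which allows up to 3 counts in a sample. Most members varied little between samples of a population, with a median SD of 0.277 on the log2 scale against 1.43 over all genes tested. *Cox4i2*, *Cox7a1* and *Atp5sl*, which had low counts, had SDs of 2.98, 2.89 and 2.22. The genes tested were not matched to the members for level, here or in the shares of all genes given below. Markers of HSCs, 8 genes that include *Kit*, *Ly6a* and *Mecom*, were all read in every population. Expression is given as CPM, which are counts scaled to a common library size with edgeR's TMM factors, and as CPM per kilobase of exon (CPM per kb) where genes are compared or summed. These are bulk samples, in which fewer cells of a type and less RNA per cell cannot be told apart.

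Together the 50 lines took 2.83% to 3.29% of all counts in 4 week MAC-1- samples, 2.17% to 2.40% in 4 week MAC-1low and 1.79% to 1.89% in 4 week MAC-1+ samples. In SS HSCs they took 2.39% to 2.63% in MAC-1- and 2.42% to 2.53% in MAC-1low samples. The 4 week populations thus did not overlap, and the SS samples lay between the outer populations of 4 weeks. In each complex and in cytochrome c the summed level of every 4 week MAC-1+ sample was below that of every 4 week MAC-1- sample. Some sums rest mostly on few genes. Over all samples, *Sdhd* made up 63.1% and *Sdhb* 25.2% of the sum of complex II. In complex III *Uqcrb*, *Uqcr11* and *Uqcr10* made up 38.7%, 25.9% and 19.3%. For 30 of the 45 members tested the highest of the 5 population means was that of 4 week MAC-1- HSCs, which is the case for 17.4% of all genes tested, and for 35 the lowest was that of 4 week MAC-1+ HSCs, against 22.7% of all genes. The mean fell at both steps from 4 week MAC-1- over MAC-1low to MAC-1+ in 34 members, an order that 23% of all genes show.

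**Figure D1:**
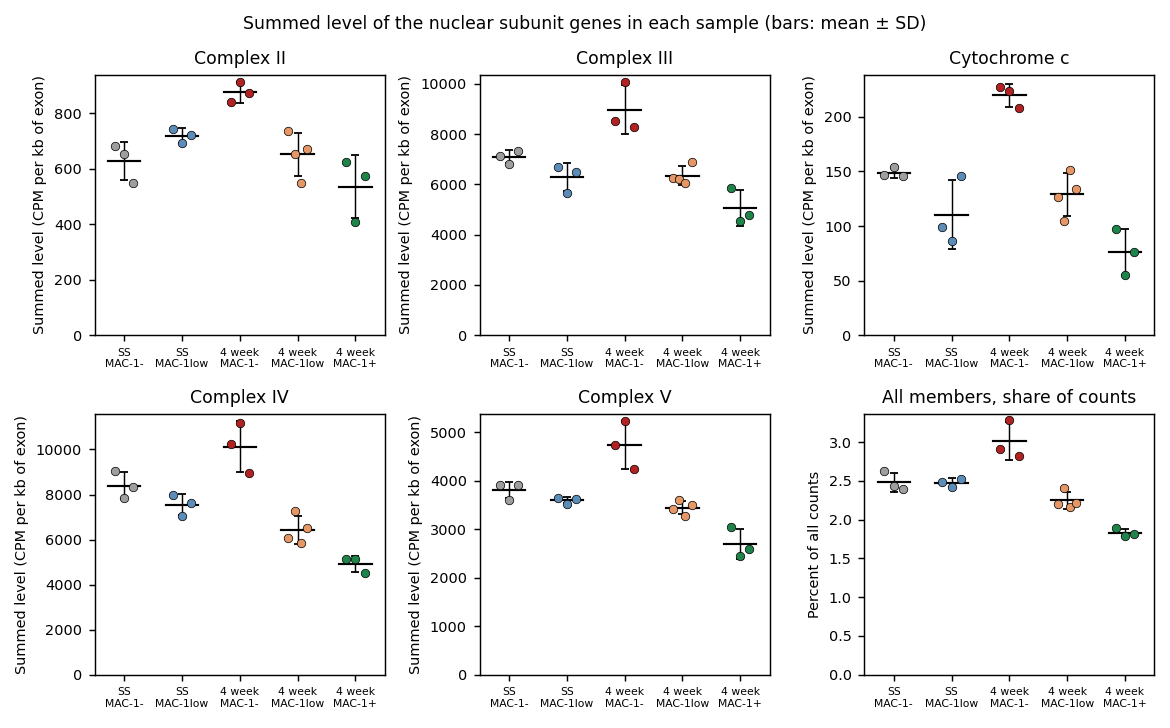
Summed CPM per kb of exon of the members of each complex in each of the 16 samples by population, and the share of all counts that fell on the members in percent; points are samples, horizontal bars the mean and vertical bars the SD. The 4 week MAC-1- samples are above all others except in complex IV, where 1 of them (8955) is below 1 SS MAC-1- sample (9045), and for the share of counts the 4 week MAC-1+ samples, at 1.79% to 1.89%, lie below all others.

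The comparison of MAC-1+ with MAC-1- HSCs at 4 weeks, the ends of the MAC-1 range in the regenerating bone marrow, held the largest number of calls among the 10 pairs of populations. edgeR called 25 of the 45 members lower in MAC-1+ HSCs and 0 higher at an adjusted p below 0.1, whereas 2.06% of all genes tested were called lower and 1.19% higher (3.25% in all). They comprised 1 of 4 members of complex II, 3 of 9 of complex III, cytochrome c, 9 of 14 of complex IV and 11 of 17 of complex V. Of these, 11 fell by more than 1 on the log2 scale (1.37% of all genes). The log2 fold change was below 0 for 44 members, with a median of -0.83, against 47.3% of all genes and a median of 0.07. For 32 members each MAC-1+ sample was below each MAC-1- sample, which held for 11.5% of all genes. The mean summed level per length of MAC-1+ over MAC-1- HSCs was 0.611 for complex II, 0.565 for complex III, 0.346 for cytochrome c, 0.487 for complex IV and 0.568 for complex V. DESeq2 called 27 members (9.6% of all genes) and limma-voom 28 (6.34%), each including the 25.

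The number of members called depended on single samples and on the model. It was 11 without 4 week MAC-1- replicate 2 (1.54% of all genes, against 3.25% with all samples). Without 4 week MAC-1+ replicate 2 or 3 it was 14 (1.72%) and 13 (1.76%). It was 14 without the filter on low counts (1.09%) and 8 in a model of only those groups (1.32%). With an offset for GC content and transcript length, chosen after seeing the data, it was 11 (2.56%). *Uqcrq*, *Uqcr10*, *Uqcr11*, *Cycs*, *Cox6a1*, *Cox6b1*, *Cox8a* and *Atp5g1* were called under each of these and all other alternatives. The other 17 lost their call when only those groups were modelled (adjusted p = 0.107 to 0.271, edgeR), 11 of them also without the filter and 14 with the offset. Many members are short transcripts: the median length of the principal transcript was 618 bases in the 25 called, 1297 in the 20 not called and 2763 over the tested genes that have one. With the offset the median log2 fold change of the members was -0.56, and 41 stayed below 0.

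**Figure D2:**
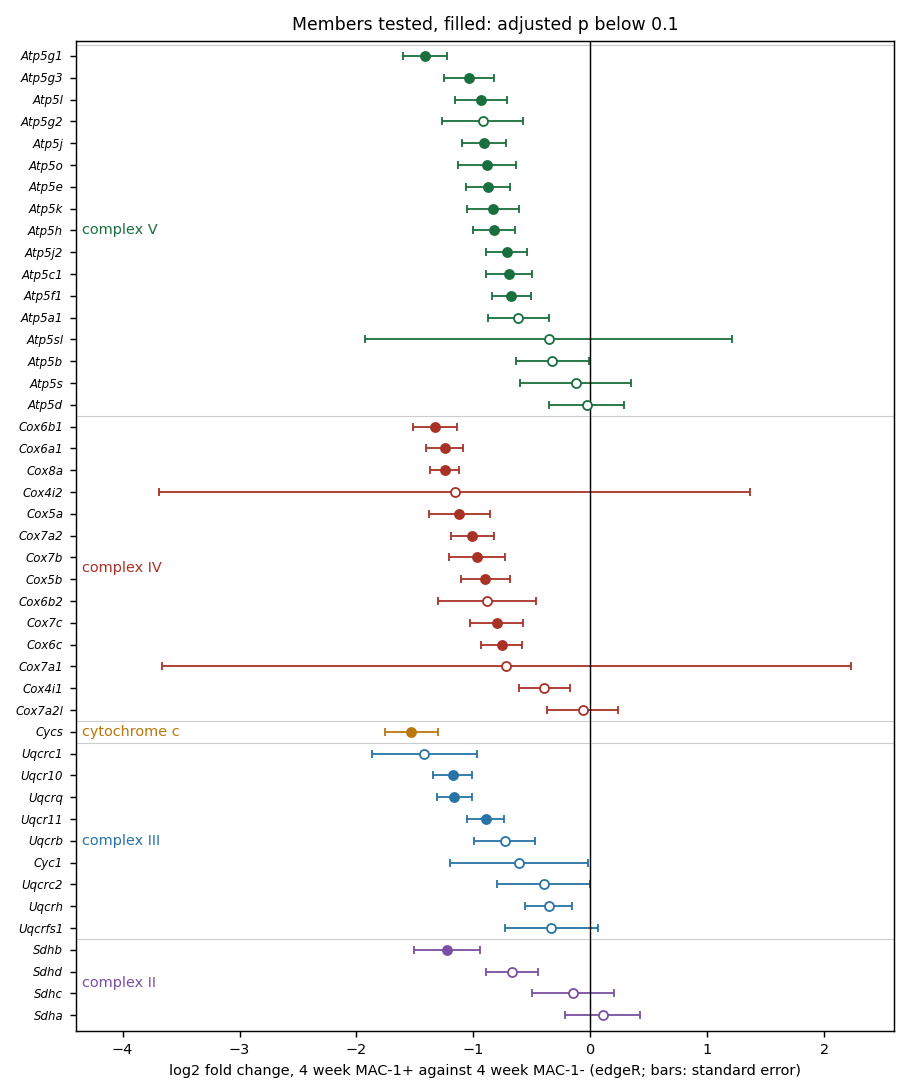
log2 fold change of each of the 45 members tested in MAC-1+ against MAC-1- HSCs at 4 weeks (x axis, log2 scale), grouped by complex; bars are standard errors, and filled points had an adjusted p below 0.1 with edgeR. The 25 filled points all lie left of 0, and *Sdha* is the sole member to the right of it.

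Markers of other cells and of division moved with the same populations. The summed CPM of 9 megakaryocyte markers was 4795 to 7677 in 4 week MAC-1-, 502 to 1014 in MAC-1low, 379 to 509 in MAC-1+ and 680.5 to 1503 in SS samples, with 4 of 9 called lower in MAC-1+ against MAC-1- HSCs, and *Gp1bb* was at 0 in the MAC-1+ samples. HSC markers were 690.5 to 890.0, 1477 to 2086 and 2271 to 3457 CPM in the 4 week order, with 5 of 8 called higher. Genes of cell division summed to 3000.2 to 3459 CPM in 4 week MAC-1-, 2410.4 to 2649 in MAC-1low and 1493 to 2108 in MAC-1+ samples, with 2 of 17 called lower (*Tyms* and *Mcm3*). Neutrophil markers were 91.7 to 155 CPM in 4 week MAC-1- and 272, 1138 and 7620 in MAC-1+ replicates 1, 2 and 3, with 3 of the 8 of them tested called higher (*Prtn3*, *S100a8* and *S100a9*), while *Ly6g* and *Ltf* were at 0 in 4 week MAC-1- samples. Without replicate 3, the sample with the highest neutrophil sum, 13 members and 1.76% of all genes tested were called. The summed CPM of 8 NK and T cell markers was 323, 376 and 644 in 4 week MAC-1-, 164 to 374 in MAC-1low and 16, 43.7 and 176 in MAC-1+ samples, so the ends did not overlap, and 1 of the 3 of them tested was called lower (*Nkg7*). Erythroblast markers summed to 60.9 to 103 CPM in 4 week MAC-1- and 147 to 284 in MAC-1+ samples, without overlap. Of the 8 of them tested, 1 was called higher (*Hbb-bt*), and 3 had a log2 fold change below 0. For monocytes and macrophages 2 of 8 markers and for B cells 2 of 7 passed the filter on low counts, and 0 of these were called. Their sums overlapped between the ends, at 346 to 584 and 458 to 611 CPM for the former and 10.2 to 35.7 and 15.7 to 119 for the latter. The part of these cells and of division in the lower level of the members was not tested.

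The sequence around the start sites was read because members of different complexes moved together. RefSeq windows on GRCm38.p6, from 250 bases before to 50 after a gene's start, were found for 35 of the members (38 windows). Letters known from the sites of NRF1, ETS factors such as GABPA, and YY1, which are known regulators of respiratory genes, were searched on both strands. GCGC and TGCGC with 1 base of any kind between them (NRF1) were in 10 of the 38 windows and in 4.6% of all 32851 windows, CCGGAAG (ETS) in 12 and 8.86%, and AAGATGGC (YY1) in 2 and 2.75%. Of the 22 called members with a window, 10 held the ETS letters, as did 2 of the 13 not called, while for NRF1 these numbers were 6 and 4. The share of all windows was not matched for level or GC content, and called against not called members was not tested. Printed here, from 250 bases before to 30 after the start, are the called member with the lowest adjusted p in each complex among those with a match, *Cox6a1*, which holds letters of both NRF1 and ETS, and *Sdha*, which was not lower in MAC-1+ HSCs. Capitals mark the matches, and some NRF1 matches read the same on both strands. The windows lie at chr4:140961021-140961300 (*Sdhb*, plus strand), chr10:80406792-80407071 (*Uqcr11*, minus), chr19:7217587-7217866 (*Cox8a*, minus), chr5:115348929-115349208 (*Cox6a1*, minus), chr2:73911297-73911576 (*Atp5g3*, minus) and chr13:74350211-74350490 (*Sdha*, minus).
Sdhb: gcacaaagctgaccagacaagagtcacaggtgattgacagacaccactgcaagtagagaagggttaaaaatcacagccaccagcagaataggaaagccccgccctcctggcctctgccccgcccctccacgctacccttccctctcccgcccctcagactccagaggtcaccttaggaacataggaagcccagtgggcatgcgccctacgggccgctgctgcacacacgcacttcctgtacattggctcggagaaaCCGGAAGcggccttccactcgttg
Uqcr11: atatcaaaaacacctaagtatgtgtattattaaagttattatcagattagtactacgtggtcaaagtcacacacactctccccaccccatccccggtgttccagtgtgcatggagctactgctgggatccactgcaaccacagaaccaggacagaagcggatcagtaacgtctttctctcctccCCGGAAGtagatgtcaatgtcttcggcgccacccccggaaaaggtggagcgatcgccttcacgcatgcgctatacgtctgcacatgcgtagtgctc
Cox8a: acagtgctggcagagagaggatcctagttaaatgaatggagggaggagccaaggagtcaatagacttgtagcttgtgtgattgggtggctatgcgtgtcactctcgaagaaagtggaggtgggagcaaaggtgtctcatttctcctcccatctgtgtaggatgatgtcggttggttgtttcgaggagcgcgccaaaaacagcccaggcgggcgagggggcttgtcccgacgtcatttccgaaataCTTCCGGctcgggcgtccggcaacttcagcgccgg
Cox6a1: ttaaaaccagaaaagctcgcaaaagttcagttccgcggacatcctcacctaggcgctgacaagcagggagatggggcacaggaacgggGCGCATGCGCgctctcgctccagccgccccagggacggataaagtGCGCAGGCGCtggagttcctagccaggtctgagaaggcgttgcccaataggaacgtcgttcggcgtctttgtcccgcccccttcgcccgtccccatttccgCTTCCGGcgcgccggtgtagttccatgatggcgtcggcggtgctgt
Atp5g3: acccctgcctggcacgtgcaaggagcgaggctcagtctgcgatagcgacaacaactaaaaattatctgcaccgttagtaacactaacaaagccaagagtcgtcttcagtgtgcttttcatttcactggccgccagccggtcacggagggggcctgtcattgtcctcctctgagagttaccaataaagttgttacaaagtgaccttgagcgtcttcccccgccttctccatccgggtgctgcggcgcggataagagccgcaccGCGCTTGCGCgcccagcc
Sdha: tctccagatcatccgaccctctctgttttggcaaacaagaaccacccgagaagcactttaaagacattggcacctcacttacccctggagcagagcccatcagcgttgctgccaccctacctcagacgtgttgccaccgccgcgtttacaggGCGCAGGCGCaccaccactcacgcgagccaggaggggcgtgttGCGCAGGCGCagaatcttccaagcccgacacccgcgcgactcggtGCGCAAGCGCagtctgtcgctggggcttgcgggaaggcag
*Sdhb*, *Uqcr11*, *Cox8a* and *Cox6a1* each show ETS letters, in *Sdhb* 6 bases after the start and in *Uqcr11*, *Cox6a1* and *Cox8a* 66, 16 and 5 bases before it. *Sdha* shows NRF1 letters at 3 positions, *Cox6a1* at 2 and *Atp5g3* at 1. These are matches of letters and not sites shown to be bound.

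Complex II had its highest summed level in 4 week MAC-1- HSCs (877 ± 37.5 CPM per kb, SD, n = 3) and its lowest in 4 week MAC-1+ HSCs (536 ± 114, n = 3), with 652 ± 77.6 (n = 4) in 4 week MAC-1low, 628 ± 69.4 (n = 3) in SS MAC-1- and 720.0 ± 26.5 (n = 3) in SS MAC-1low HSCs. Of its 4 genes 1 was called between the ends of the 4 week range. *Sdhb* (ENSMUSG00000009863, chr4:140961203-140979193 on GRCm38, as for all genes here), the iron-sulfur subunit, had 465, 494 and 588 CPM in 4 week MAC-1- samples, 202, 422, 358 and 309 in MAC-1low and 222, 137 and 303 in MAC-1+ samples. Every MAC-1+ sample was below every MAC-1- sample, and in MAC-1low the values overlapped those of MAC-1+. *Sdhb* fell in MAC-1+ against MAC-1- HSCs (log2 fold change -1.23 with a standard error of 0.28, edgeR adjusted p = 0.0385), a call lost without 4 week MAC-1- replicate 2 or 3 (adjusted p = 0.102 and 0.146, edgeR), 4 week MAC-1+ replicate 2 (0.165) or in a model of only those groups (0.135). In SS HSCs it had 496, 391 and 403 CPM in MAC-1- and 498, 386 and 469.5 in MAC-1low samples, which overlap.

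*Sdha* (ENSMUSG00000021577, chr13:74322254-74350280), the flavoprotein that binds succinate and partner of *Sdhb*, had 108, 311 and 238 CPM in 4 week MAC-1- samples against 312, 217 and 177 in the MAC-1+ ones. These overlap, and the log2 fold change of 0.10 had a standard error of 0.32 (edgeR adjusted p = 0.959). Its direction turned without 4 week MAC-1- replicate 1 or 4 week MAC-1+ replicate 1. Within a sample *Sdhb* had 1.59 to 4.30 counts per *Sdha* count in 4 week MAC-1- HSCs, 0.872 to 1.79 in MAC-1low and 0.629 to 1.71 in MAC-1+ HSCs. Of the membrane anchors, *Sdhd*, with the highest level per length in the complex (429.8 CPM per kb), had 714, 731 and 641 CPM in 4 week MAC-1-, 705, 443, 388 and 558 in MAC-1low and 531, 321 and 456 in MAC-1+ samples. The MAC-1+ samples were below the MAC-1- samples, with a log2 fold change of -0.67 (edgeR adjusted p = 0.171). With limma-voom *Sdhd* was called (adjusted p = 0.0757). *Sdhc* had 83.6, 82.0 and 113 CPM in 4 week MAC-1-, 55.1, 156, 76.5 and 101 in MAC-1low and 60.5, 104 and 86.7 in MAC-1+ samples, which overlap (log2 fold change -0.14, edgeR adjusted p = 0.943).

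In complex III the called members were 3 accessory subunits. The summed level was 8968 ± 972 (SD, n = 3) CPM per kb in 4 week MAC-1-, 6353 ± 371 (n = 4) in MAC-1low and 5066 ± 703 (n = 3) in MAC-1+ HSCs, and 7095 ± 262 and 6287 ± 549 (n = 3 each) in SS MAC-1- and MAC-1low HSCs. *Uqcrq* (ENSMUSG00000044894, chr11:53427922-53430831), an accessory subunit, had 629.6, 719 and 668 CPM in 4 week MAC-1-, 379, 501, 419 and 416 in MAC-1low and 277, 348 and 275 in MAC-1+ samples. The 3 populations stood apart without overlap, and the SS samples, at 540.2 to 614 CPM, fell between MAC-1- and MAC-1low. Its fall in MAC-1+ against MAC-1- HSCs was -1.16 on the log2 scale (standard error 0.15, edgeR adjusted p = 0.00116).

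*Uqcr10* (ENSMUSG00000059534, chr11:4701973-4704342), another accessory subunit, had 904, 1207 and 921 CPM in 4 week MAC-1-, 543, 737, 688 and 650.1 in MAC-1low and 466, 372 and 502 in MAC-1+ samples, again with no overlap (log2 fold change -1.18 with a standard error of 0.17, edgeR adjusted p = 0.00233). *Uqcr11* (ENSMUSG00000020163, chr10:80402997-80406830) had 1204, 1424 and 1388, then 756, 1171, 952 and 965, then 620.0, 769 and 771 CPM in the same order. Here the MAC-1+ samples overlapped with the lowest MAC-1low sample and lay below all MAC-1- samples (log2 fold change -0.89 with a standard error of 0.16, edgeR adjusted p = 0.00947). *Uqcrb*, the accessory subunit with the highest level per length in the complex (2604 CPM per kb), had a log2 fold change of -0.73. Its adjusted p was 0.216 (edgeR), which was 0.0428 without 4 week MAC-1+ replicate 1 and 0.0366 with limma-voom.

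The redox subunits and core proteins of complex III, 4 genes, were not called. Their samples varied more within a population than those of the called members. The log2 SD was 0.80 for *Cyc1*, 0.54 for *Uqcrfs1*, 0.58 for *Uqcrc1* and 0.48 for *Uqcrc2*. It was 0.19, 0.19 and 0.14 for *Uqcr10*, *Uqcr11* and *Uqcrq*. *Cyc1*, which carries the heme that passes electrons to cytochrome c, had 97.9, 76.3 and 105 CPM in 4 week MAC-1- and 30.7, 60.2 and 92.3 in MAC-1+ samples (log2 fold change -0.61 with a standard error of 0.59, edgeR adjusted p = 0.765). *Uqcrfs1*, the Rieske iron-sulfur protein, had a log2 fold change of -0.33 (edgeR adjusted p = 0.831). For the core protein gene *Uqcrc1* it was -1.42 with a standard error of 0.45 and no overlap between samples, but an adjusted p of 0.148 (edgeR), which was 0.0803 without SS MAC-1- replicate 1 and 0.0383 with DESeq2. *Uqcrc2*, the other core protein, had -0.40 and the hinge protein gene *Uqcrh*, an accessory subunit, -0.36 (adjusted p = 0.772 and 0.473, edgeR).

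*Cycs* (ENSMUSG00000063694, chr6:50562563-50566538) encodes somatic cytochrome c, which shuttles electrons from complex III to complex IV and, once released to the cytosol, activates caspases. It had 773, 762 and 707 CPM in 4 week MAC-1- samples, 432, 355, 514 and 455 in MAC-1low and 331, 187 and 258 in MAC-1+ samples. The 4 week populations did not overlap, and SS MAC-1- samples lay close together at 496 to 525 CPM, while SS MAC-1low samples spread from 294 to 498. In MAC-1+ against MAC-1- HSCs *Cycs* fell by 1.53 on the log2 scale (standard error 0.23, edgeR adjusted p = 0.00300), the largest negative log2 fold change among the 45 members in this comparison.

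Complex IV contributed 14 tested members, and its summed level was 10127 ± 1122 (SD, n = 3) CPM per kb in 4 week MAC-1-, 6426 ± 611 (n = 4) in MAC-1low and 4928 ± 358 (n = 3) in MAC-1+ HSCs. In SS HSCs it was 8399 ± 609.8 in MAC-1- and 7544 ± 470.0 in MAC-1low (n = 3 each), so that all 4 week MAC-1+ samples (4515 to 5146) lay below all SS samples (7044 to 9045). *Cox8a* (ENSMUSG00000035885, chr19:7215153-7217616), the ubiquitous form of the smallest subunit and the one with the highest level per length in the complex, had 1297, 1379.9 and 1174 CPM in 4 week MAC-1- samples. It had 704, 872, 728 and 715 CPM in MAC-1low and 570.1, 532 and 523 in MAC-1+ samples. The 3 populations did not overlap with each other, and SS samples (994 to 1149 CPM) lay between MAC-1- and MAC-1low. *Cox8a* had the lowest adjusted p of all members (log2 fold change -1.24 with a standard error of 0.12, edgeR adjusted p = 1.61e-04), and over all alternatives this p stayed between 3.7e-19 and 0.0443.

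*Cox6a1* (ENSMUSG00000041697, chr5:115345642-115348981), the form of subunit VIa made outside heart and muscle, had 869, 938 and 820.4 CPM in 4 week MAC-1-, 439.5, 558, 489 and 595 in MAC-1low and 356, 408 and 344 in MAC-1+ samples. It too was without overlap at each step (log2 fold change of MAC-1+ against MAC-1- -1.25 with a standard error of 0.16, edgeR adjusted p = 8.94e-04). *Cox6b1* (ENSMUSG00000036751, chr7:30616861-30626151), which faces the intermembrane space, had 1112, 1273 and 989, then 589, 845, 587 and 669, then 428, 533 and 380.4 CPM in the same order. Its samples did not overlap either (log2 fold change -1.33 with a standard error of 0.19, edgeR adjusted p = 0.00187).

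The remaining 6 called members of complex IV had log2 fold changes from -0.76 (*Cox6c*) to -1.12 (*Cox5a*). *Cox7a2*, the form of subunit VIIa made in most tissues, had 1327, 1700.3 and 1253 CPM in 4 week MAC-1-, 944, 1103, 784 and 883 in MAC-1low and 712, 830.2 and 583 in MAC-1+ samples, with a gap between the ends. It had a log2 fold change of -1.01 (edgeR adjusted p = 0.00997) and was called with each sample left out in turn, but not in a model of only those groups (edgeR adjusted p = 0.108). *Cox5a*, which lies on the matrix side, had 343, 357 and 388 CPM in 4 week MAC-1- against 224, 93.1 and 183 in MAC-1+ samples (edgeR adjusted p = 0.0385). MAC-1low samples, at 214 to 231 CPM, were close to SS samples, at 138 to 219.8 CPM, so that 4 week MAC-1- HSCs stood apart from the other populations. *Cox5b*, the zinc-binding neighbour of *Cox5a* on the matrix side, had 547, 633 and 569.8 CPM in 4 week MAC-1-, 294, 451, 437 and 415 in MAC-1low and 273, 355 and 309 in MAC-1+ samples (log2 fold change -0.90, edgeR adjusted p = 0.0400). The membrane subunit gene *Cox6c* had 1859, 2287 and 1489 CPM in 4 week MAC-1-, 1338, 1226, 1073 and 1275 in MAC-1low and 1372, 1021 and 937 in MAC-1+ samples (-0.76, edgeR adjusted p = 0.0371). In both, MAC-1low samples overlapped MAC-1+ samples and lay below MAC-1- samples.

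*Cox7b*, another membrane subunit gene, had 1769, 1816 and 1238 CPM in 4 week MAC-1-, 1046, 867, 862 and 1108 in MAC-1low and 1134, 656 and 676 in MAC-1+ samples (log2 fold change -0.97, edgeR adjusted p = 0.0515). *Cox7c* had 976, 716 and 615 CPM in 4 week MAC-1-, 522, 686, 426 and 407 in MAC-1low and 373, 500.3 and 451 in MAC-1+ samples (-0.80, edgeR adjusted p = 0.0969). For both the ends did not overlap, and 1 MAC-1+ sample of *Cox7b* stood close to the lowest MAC-1- sample. The calls of *Cox5a*, *Cox5b*, *Cox6c*, *Cox7b* and *Cox7c* were each lost without 4 week MAC-1- replicate 2 or 4 week MAC-1+ replicate 3, where the adjusted p was 0.104 to 0.246 (edgeR). Calls were also lost without 4 week MAC-1- replicate 1 for *Cox6c* and *Cox7b*, without replicate 3 of it for *Cox5a* and *Cox5b*, without 4 week MAC-1+ replicate 2 for *Cox5a*, *Cox6c* and *Cox7b*, and without 4 week MAC-1+ replicate 1 for *Cox5b* (adjusted p = 0.104 to 0.221, edgeR). All 5 were lost as well in a model of only those groups (0.107 to 0.210) and with the GC and length offset (0.134 to 0.423), and *Cox5a*, *Cox5b* and *Cox7c* without the filter on low counts (0.122, 0.129 and 0.220). *Cox7c* (edgeR adjusted p = 0.0969) was close to the threshold, and of the 16 fits with a sample left out it was called in that without 4 week MAC-1low replicate 2 alone.

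Other members of complex IV were not called. *Cox4i1*, the ubiquitous form of the regulatory subunit IV, had 619, 702 and 751 CPM in 4 week MAC-1-, 480.2 to 751 in MAC-1low and 373, 618 and 586 in MAC-1+ samples (log2 fold change -0.39, edgeR adjusted p = 0.462), and its highest means were in SS HSCs, 941 ± 99.0 and 942 ± 220.5 CPM (SD, n = 3 each). *Cox7a2l*, a factor that joins complexes III and IV into supercomplexes rather than a subunit of the enzyme, had 149.7, 212 and 165 CPM in 4 week MAC-1- and 166, 163 and 174 in MAC-1+ samples, which overlap (log2 fold change -0.07 with a standard error of 0.30, edgeR adjusted p = 0.976). Forms known from other tissues were low or at 0: *Cox6b2* (testis) had 26.6 to 84.4 CPM, *Cox4i2* (lung) 0 to 13.9 with 5 samples at 0, *Cox7a1* (muscle) 0 to 7.84 with 7 samples at 0, and *Cox6a2*, *Cox7b2*, *Cox8b* and *Cox8c* 0 throughout.

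**Figure D3:**
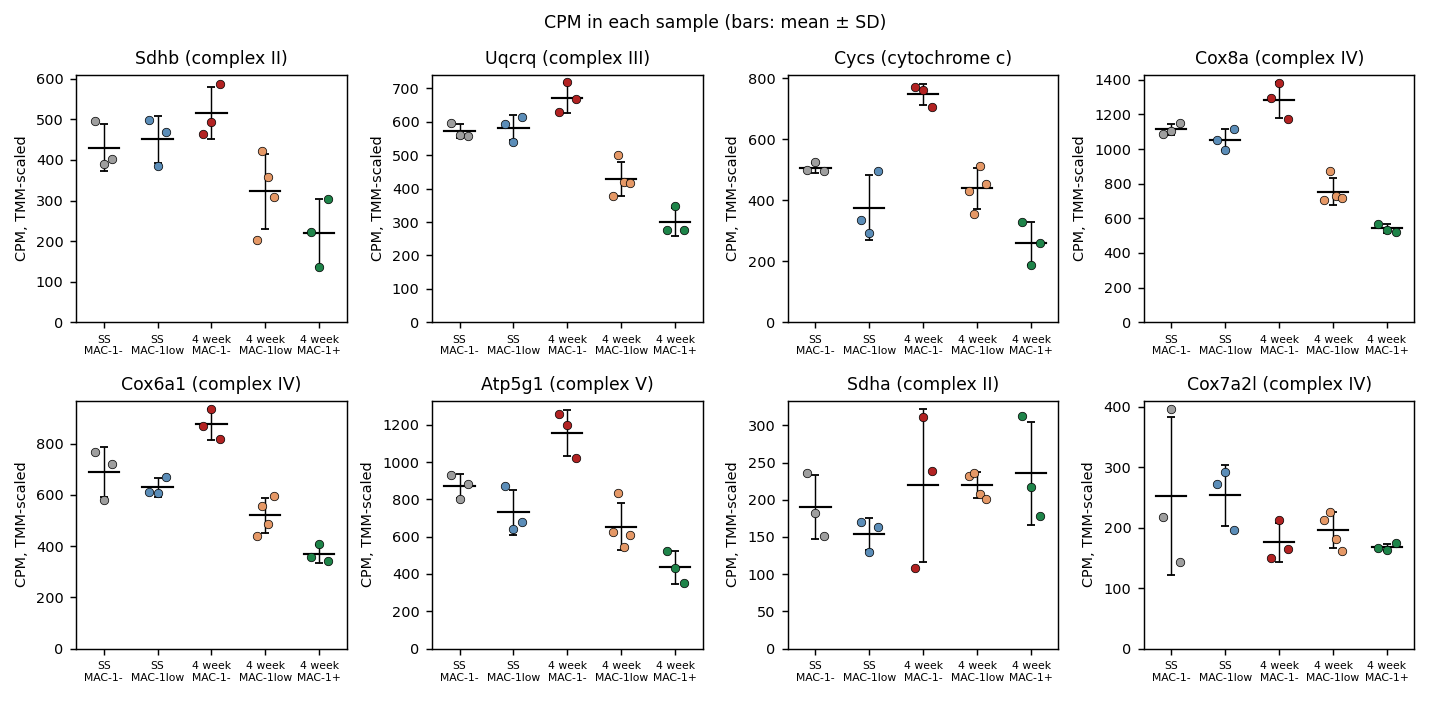
TMM-scaled CPM of 8 members in each of the 16 samples by population; points are samples, horizontal bars the mean and vertical bars the SD. *Uqcrq*, *Cycs*, *Cox8a* and *Cox6a1* step down without overlap from 4 week MAC-1- (for *Cox8a* 1174 to 1379.9 CPM) over MAC-1low to MAC-1+ (523 to 570.1 CPM), while the 4 week populations of *Sdha* and *Cox7a2l* overlap.

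Complex V, with 17 members tested, had a summed level of 4739 ± 494 (SD, n = 3) CPM per kb in 4 week MAC-1-, 3448 ± 140.5 (n = 4) in MAC-1low and 2691 ± 311 (n = 3) in MAC-1+ HSCs, against 3805 ± 169 and 3601 ± 64.9 (n = 3 each) in SS MAC-1- and MAC-1low HSCs. The 3 genes of subunit c, which forms the ring that turns in the membrane, encode the same mature protein and differ in their import signal. *Atp5g1* (ENSMUSG00000006057, chr11:96068852-96075670) had 1258, 1197 and 1021 CPM in 4 week MAC-1-, 627, 834, 545 and 607 in MAC-1low and 524, 430.3 and 350.1 in MAC-1+ samples. All 3 populations were apart, and the fall in MAC-1+ against MAC-1- HSCs was the largest in complex V (log2 fold change -1.41 with a standard error of 0.19, edgeR adjusted p = 0.00171).

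*Atp5g3* (ENSMUSG00000018770, chr2:73908447-73911326) had 941, 946 and 819 CPM in 4 week MAC-1-, 727, 419, 570.0 and 623 in MAC-1low and 557, 316 and 445 in MAC-1+ samples, and 401, 477 and 424 in SS MAC-1- samples. The MAC-1+ samples were below all 4 week MAC-1- samples (log2 fold change -1.04 with a standard error of 0.21, edgeR adjusted p = 0.0186) and overlapped those of SS MAC-1- HSCs. The call held with each sample left out but was lost with the GC and length offset (edgeR adjusted p = 0.195) and in a model of only those groups (0.123). In a sample, *Atp5g1* had 1.68 to 2.32 counts per *Atp5g3* count in SS MAC-1-, 1.25 to 1.34 in 4 week MAC-1- and 0.787 to 1.36 in 4 week MAC-1+ HSCs. *Atp5g2*, which had the lowest level per length of the 3, had a log2 fold change of -0.92 without overlap and an adjusted p of 0.249 (edgeR). With DESeq2 *Atp5g2* was called (adjusted p = 0.0950).

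The subunits of the catalytic head that bind nucleotides were not called. *Atp5b*, the beta subunit, had 330.3, 394 and 326 CPM in 4 week MAC-1- and 239.7, 232 and 366 in MAC-1+ samples (log2 fold change -0.33, edgeR adjusted p = 0.762), and *Atp5a1*, the alpha subunit, had -0.62 without overlap (edgeR adjusted p = 0.315). Of the central stalk, *Atp5c1* (gamma) and *Atp5e* (epsilon) were called, with log2 fold changes of -0.69 and -0.88 (adjusted p = 0.0967 and 0.0244, edgeR). The remaining gene of it, *Atp5d* (delta), was not, with -0.03 (edgeR adjusted p = 0.993) and a sign that turned under 9 alternatives. *Atp5c1* had 1272, 1384 and 994 CPM in 4 week MAC-1-, 977, 939, 1000.3 and 1064 in MAC-1low and 942, 548 and 767 in MAC-1+ samples, and *Atp5e* had 508, 608 and 506 CPM in 4 week MAC-1-, 345, 469.8, 314 and 367 in MAC-1low and 263, 313 and 306 in MAC-1+ samples. MAC-1low samples of *Atp5c1* overlapped both ends, and those of *Atp5e* lay between the ends without overlap. *Atp5e* lost its call without 4 week MAC-1- replicate 2 (0.120), without the filter on low counts (0.170) and in a model of only those groups (0.110). *Atp5c1* lost it under both of these too (0.236 and 0.271) and with the GC and length offset (0.410), and of the 16 fits with a sample left out it was called in those without 4 week MAC-1- replicate 3 or 4 week MAC-1+ replicate 1 alone.

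All 4 genes of the peripheral stalk, which keeps the head from turning, were called: *Atp5j* (log2 fold change -0.91, adjusted p = 0.0191), *Atp5h* (-0.83, 0.0259), *Atp5f1* (-0.68, 0.0576) and *Atp5o* (-0.88, 0.0905, edgeR). *Atp5j* had 2709, 2587 and 2107 CPM in 4 week MAC-1-, 1513 to 2289.7 in MAC-1low and 1717, 1137 and 1082 in MAC-1+ samples, with no overlap between the ends. *Atp5h* had 603, 813 and 769 against 399, 357 and 477 CPM, and here SS samples, at 627 to 884 CPM, overlapped 4 week MAC-1- samples. *Atp5f1* had 1316, 1073 and 1027 CPM in 4 week MAC-1-, 895, 739, 829 and 811 in MAC-1low and 907, 606 and 627 in MAC-1+ samples. *Atp5o* had 639, 808 and 690.3 CPM in 4 week MAC-1-, 408, 844, 550.0 and 620.4 in MAC-1low and 459, 289 and 409.8 in MAC-1+ samples. In *Atp5o* MAC-1low samples spread over the range of both ends, which did not overlap each other.

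The calls of the stalk genes depended on single samples. They were lost without 4 week MAC-1+ replicate 2 for all 4 (adjusted p = 0.104 to 0.343, edgeR), and without replicate 3 for *Atp5j*, *Atp5f1* and *Atp5o* (0.106 to 0.232). Leaving out 4 week MAC-1- samples ended the call of *Atp5h* (replicates 2 and 3), *Atp5f1* (1 and 2) and *Atp5o* (each of the 3), with an adjusted p of 0.103 to 0.290 (edgeR), and *Atp5o* was called in 3 of the 16 fits, those without 4 week MAC-1low replicate 1 or 2 or 4 week MAC-1+ replicate 1. All 4 lost their call when only those populations were modelled (adjusted p = 0.134 to 0.240, edgeR) and with the GC and length offset (0.164 to 0.281), and *Atp5h*, *Atp5f1* and *Atp5o* also without the filter on low counts (0.102 to 0.301).

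Of the small membrane subunits that join synthase dimers, *Atp5l* (-0.93, adjusted p = 0.0422), *Atp5k* (-0.83, 0.0718) and *Atp5j2* (-0.72, 0.0468, edgeR) were called, each without overlap. *Atp5l* had 358, 426 and 306 CPM in 4 week MAC-1-, 264, 248, 193 and 240.1 in MAC-1low and 243, 187 and 141 in MAC-1+ samples. *Atp5k* had 344, 392 and 261 CPM in 4 week MAC-1-, 169.5, 257, 209 and 202 in MAC-1low and 169, 229.6 and 161 in MAC-1+ samples. *Atp5j2* had 601, 991 and 674 CPM in 4 week MAC-1-, 516, 599.9, 490.1 and 550.0 in MAC-1low and 469, 507 and 403 in MAC-1+ samples. For all 3, MAC-1low samples lay below the MAC-1- samples and overlapped the MAC-1+ samples. The 3 calls were lost without 4 week MAC-1- replicate 2 (adjusted p = 0.193, 0.281 and 0.233, edgeR) or 4 week MAC-1+ replicate 3 (0.191, 0.270 and 0.220). *Atp5l* was also lost without 4 week MAC-1- replicate 1 or 4 week MAC-1+ replicate 2 (0.115 and 0.148), and *Atp5k* without 4 week MAC-1- replicate 1, 4 week MAC-1+ replicate 1, 4 week MAC-1low replicate 3 or any SS MAC-1low sample (0.114 to 0.201). Without the filter on low counts, in a model of only those groups or with the offset the adjusted p of the 3 was 0.167 to 0.399 (edgeR), so that no call remained. *Atp5s* and *Atp5sl*, which carry the name but are not standing subunits of the synthase, had log2 fold changes of -0.13 and -0.36 with standard errors of 0.47 and 1.57.

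The step from 4 week MAC-1- to 4 week MAC-1low HSCs held fewer calls. edgeR called 4 members lower and 0 higher (0.117% and 0.161% of all genes): *Cox8a* (log2 fold change -0.77, adjusted p = 0.0110), *Cox6a1* (-0.75, 0.0529), *Atp5g1* (-0.83, 0.0977) and *Uqcrq* (-0.65, 0.0977). All were without overlap, as were 22 of the 45 members (5.53% of all genes), and the median log2 fold change was -0.54, against 0.05 over all genes. The count was 1 without 4 week MAC-1- replicate 1, 2 or 3, 4 week MAC-1low replicate 1 or 3 or SS MAC-1low replicate 2 or 3, and 2 without 4 week MAC-1low replicate 4, 4 week MAC-1+ replicate 2, SS MAC-1low replicate 1 or SS MAC-1- replicate 1, 2 or 3. DESeq2 called 9 (2.97%) and limma-voom 18 (2.26%). The count was 0 with the GC and length offset (0.235%), without the filter (0.173%) and in a model of only those groups (0.14%). The replicate number as a block gave 0 as well, and a covariate for how many genes a sample had detected gave 1.

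From 4 week MAC-1low to 4 week MAC-1+ HSCs edgeR called 0 members and 0.0% of all genes. An unadjusted p below 0.05 was seen for 14 members in the lower and 1 (*Atp5d*) in the higher direction, against 4.61% and 2.24% of all genes, and DESeq2 called 4 members (2.23%). The median log2 fold change was -0.36, against -0.00 over all genes, and for 8 the MAC-1+ samples were all below the MAC-1low samples (4.48% of all genes). *Cycs* had -0.76, *Cox6b1* -0.59 and *Cox8a* -0.48 (adjusted p = 0.535, 0.545 and 0.471, edgeR).

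In steady state no difference between the populations was called for these genes. edgeR called 0 members in SS MAC-1low against SS MAC-1- HSCs (0.0146% of all genes), DESeq2 (5.41% of all genes) and limma-voom (0.0%) also 0, and 3 (*Atp5s*, *Uqcrc2* and *Cox5b*) had an unadjusted p below 0.05, all lower (4.26% of all genes). The median log2 fold change was -0.09 against 0.00 over all genes. More members were below 0 than above it, 31 and 14 (49.7% of all genes below). *Cox8a* had 1088, 1104 and 1149 CPM in SS MAC-1- and 1053, 994 and 1119 in SS MAC-1low samples. The test of whether the MAC-1low against MAC-1- difference was unlike between 4 weeks and SS called 0 members (0.0586% of all genes), with 9 at an unadjusted p below 0.05, all with a negative value (3.95% of all genes), and DESeq2 called 4 (4.17%).

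Calls against SS HSCs were higher for 4 week MAC-1- HSCs and lower for the other 4 week populations. 4 week MAC-1- HSCs had a log2 fold change above 0 against SS MAC-1- HSCs for 32 members (median 0.26, against -0.03 over all genes, of which 51.3% were below 0), and edgeR called *Atp5g3* (1.06, standard error 0.21, adjusted p = 0.0665), where 0.212% of all genes were called higher. This call was lost without any of the 9 samples of SS MAC-1-, SS MAC-1low and 4 week MAC-1- HSCs and without 4 week MAC-1low or 4 week MAC-1+ replicate 3. Against SS MAC-1low HSCs the same population was called higher for *Uqcrb* (1.22, adjusted p = 0.0832) and *Cycs* (0.99, 0.0993, edgeR; 0.271% of all genes), a count that was 6 without 4 week MAC-1+ replicate 1. It was 1 without SS MAC-1- replicate 1 or 3, SS MAC-1low replicate 3 or 4 week MAC-1low replicate 2, and 0 without SS MAC-1- replicate 2, SS MAC-1low replicate 1 or 2, 4 week MAC-1low replicate 3 or 4, 4 week MAC-1+ replicate 3 or any 4 week MAC-1- sample. *Uqcrb* had 3413, 3836 and 2962 CPM in 4 week MAC-1- and 1859.8, 1182 and 1327 in SS MAC-1low samples.

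Calls were most frequent for MAC-1+ HSCs. edgeR called 15 members lower and 0 higher in 4 week MAC-1+ against SS MAC-1- HSCs (1.59% of all genes called lower and 0.776% higher), 3 of complex III, cytochrome c, 6 of complex IV and 5 of complex V. The lowest adjusted p was that of *Cox8a* (log2 fold change -1.04 with a standard error of 0.12, edgeR adjusted p = 0.00259). *Cox4i1* was called in this comparison (-0.84, adjusted p = 0.0833) and in no other. Without SS MAC-1- replicate 1 the count was 9, and it was 3 with the GC and length offset (1.07% of all genes) and 1 in a model of only those groups (0.168%). The median was -0.52, against 0.02 over all genes. Against SS MAC-1low HSCs 9 were called lower (0.834% of all genes), with a median of -0.53 against -0.01. That count was 2 to 5 without any one SS MAC-1low or 4 week MAC-1+ sample. It was 5 with the replicate block, limma-voom (0.761% of all genes) or no filter (0.571%). It was 1 with the offset (0.397%) and 0 in a model of only those groups (0.0087%), while DESeq2 called 14 (7.96%). These comparisons share the 4 week MAC-1+ samples with each other and with the comparison within 4 weeks. 4 week MAC-1low HSCs had fewer calls against SS HSCs, with 1 member called against SS MAC-1- (*Cox8a*, -0.56, edgeR adjusted p = 0.0895; 0.102% of all genes called lower), a call that held in the fits without SS MAC-1low replicate 1, 4 week MAC-1low replicate 2 or 4 week MAC-1+ replicate 1 or 2 and in no other with a sample left out, and 0 against SS MAC-1low HSCs (0.0439% of all genes; 8 lower and 2 higher at an unadjusted p below 0.05, against 3.51% and 5.37%, and 4 called by DESeq2, against 3.78%).

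**Figure D4:**
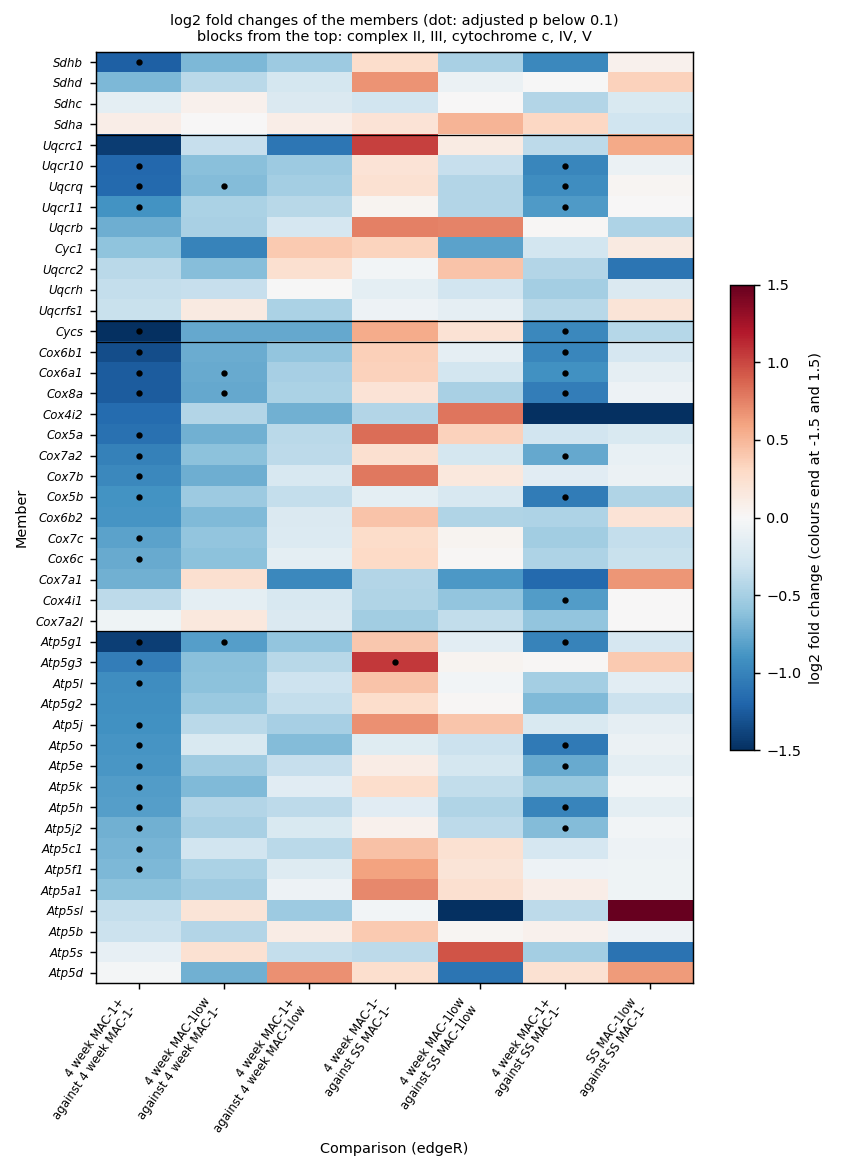
log2 fold changes of the 45 members tested (rows, by complex) in 7 comparisons of populations (columns); blue is lower and red higher in the population named first, and dots mark an adjusted p below 0.1 with edgeR. The column of MAC-1+ against MAC-1- HSCs at 4 weeks holds 25 dots, that of MAC-1low against MAC-1- HSCs at 4 weeks 4 and that of both SS populations 0.

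A test of any difference among the 5 populations called 13 members (2.22% of all genes), *Cox8a*, *Cox6a1*, *Cox6b1*, *Cox7a2* and *Cox5b* of complex IV, *Uqcrq*, *Uqcr10* and *Uqcr11* of complex III, *Cycs*, and *Atp5g1*, *Atp5g3*, *Atp5h* and *Atp5j* of complex V, and 0 of complex II. DESeq2 called 26 in the same test (9.76%), and 6 were called with the GC and length offset (1.29%).

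Other genes of the pathway were read from lists beside the members, for MAC-1+ against MAC-1- HSCs at 4 weeks, where 3.25% of all genes tested were called, 47.3% were below 0 and the median was 0.07. The subunits that mitochondrial DNA contributes to complexes III to V were not called (0 of 6, median log2 fold change -0.02). *mt-Co1*, the catalytic subunit of complex IV, had 24834 ± 3564 (SD, n = 3) and 23708 ± 10705 (n = 3) CPM, with a log2 fold change of -0.07. Nuclear subunits of complex I, on the other hand, were called lower for 12 of 36, with a median of -0.70 and 35 of them below 0. Assembly factors of complexes II to V were called for 1 of 34 tested, near the share of all genes, with a median of -0.19. The gene called was *Uqcc2*, which helps to build complex III, with 509.6 ± 81.1 CPM (SD, n = 3) in MAC-1- and 173 ± 9.61 (n = 3) in MAC-1+ HSCs (log2 fold change -1.55, edgeR adjusted p = 5.6e-04).

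The remaining lists held a single call each, too few to set against the share of all genes. Among enzymes of the tricarboxylic acid cycle 1 of 17, *Mdh2*, was called (log2 fold change -1.29, edgeR adjusted p = 0.0439; median of the list -0.70). Carriers and porins had 1 of 7, the ADP/ATP carrier gene *Slc25a5* (-1.35, adjusted p = 1.61e-04). Regulators of respiratory genes had 1 of 13, *Chchd2* (-0.79, adjusted p = 0.0133), and *Nrf1*, *Gabpa*, *Yy1*, *Tfam* and *Myc* were between -0.47 and 0.55 with adjusted p of 0.629 to 0.930 (edgeR).

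Some members share exon sequence on the opposite strand with a neighbour, and libraries of this kind do not mark strand. Among them are *Atp5a1* with *Haus1*, *Atp5f1* with *Wdr77*, *Cox6c* with *Vps13b*, *Cox4i1* with *Emc8* and *Atp5j* with *Gabpa*, where the neighbours had 56631, 39801, 23965, 16995 and 16053 counts in all and the members 101580, 259390, 435583, 228496 and 542719. Reads from the shared stretches of these pairs cannot be told apart. The counts given are those of whole genes, and how many fell in the shared stretches was not read. Members with processed copies in the genome are uncertain in the same way.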

How the data were processed

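RNA of 16 samples from 5 HSC populations was sequenced from libraries made with SMART-Seq v4 and Nextera XT, which carry no molecular identifiers and do not mark strand. Raw read counts per gene, one table for all samples, were deposited by the authors, who ran the nf-core RNA-seq pipeline with STAR; for the counting program, genome build and annotation the sources used here give no name, and the submitters' processing notes name DESeq2. Total counts were 13781278 to 28580658 per sample. Gene positions, lengths and overlaps come from GENCODE M21 (GRCm38), where 45229 of 46078 identifiers and 49 of the 50 members were found.

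Groups were taken from the sample labels. Genes passing edgeR's filterByExpr (13661) were fitted with 1 mean per population over all 16 samples (edgeR 4.0.16 in R 4.3.3, TMM scaling, robust quasi-likelihood fit), and the 10 pairs of populations, the difference of the MAC-1low against MAC-1- change between 4 weeks and SS, and any difference among populations were tested, two-sided. A gene was called at a Benjamini-Hochberg adjusted p, over all genes tested, below 0.1. Alternatives were DESeq2 1.42.0, limma-voom (limma 3.58.1), DESeq2 size factors, no filter, the number of detected genes as covariate, the replicate number as block, only the populations compared, each sample left out, and, chosen after seeing the data, an offset for GC content and length and the length of the principal transcript for summed levels. The fit was checked on simulated counts. Named were all members called in any test, in each complex the 3 with the highest level per length and those with the most positive and most negative log2 fold change from MAC-1- to MAC-1+ HSCs at 4 weeks, and members chosen for their role (complex II, cytochromes, the Rieske protein, subunit IV, subunit c, tissue forms). The other 7 members tested were named after their values were seen. The members and gene lists were chosen with earlier results of these data known.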

Additional observations from a re-analysis of the deposited data

Results flagged for a closer look

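*Cox8a* in 4 week MAC-1low HSCs had 1 sample away from the other 3. Replicate 2 had 872 CPM, and the others had 704, 728 and 715 CPM. The gap of replicate 2 to its nearest neighbour was 0.855 of the range of the 4 samples, above Dixon's critical value for 4 samples. Among the 49 sets of 4 values tested in this way chance alone flags about 1 in 20. Replicate 2 remained below the lowest 4 week MAC-1- sample (1174 CPM) and above the highest 4 week MAC-1+ sample (570.1 CPM).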

How the results depend on the processing

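Values are numbers of members called, with the share of all genes tested in brackets where it was computed. DESeq2 called 9 in 4 week MAC-1low against 4 week MAC-1- HSCs (2.97%) and 4 in 4 week MAC-1+ against MAC-1low (2.23%). In 4 week MAC-1- against SS MAC-1- it called 6 (6.46%), and in MAC-1low of both times 4 (3.78%). Against SS MAC-1low it called 14 in 4 week MAC-1+ (7.96%) and 9 in 4 week MAC-1- (5.34%). In 4 week MAC-1low against SS MAC-1- it called 4 (6.12%). For the difference between 4 weeks and SS it called 4 (4.17%), and for any difference 26 (9.76%). limma-voom called 18 in 4 week MAC-1low against 4 week MAC-1- (2.26%) and 1 in MAC-1low of both times (0.176%). It called 5 and 10 in 4 week MAC-1+ and MAC-1- against SS MAC-1low HSCs (0.761% and 1.9%). DESeq2 size factors gave 2 in 4 week MAC-1low against MAC-1- (0.278%) and 1 in 4 week MAC-1- against SS MAC-1low HSCs (0.417%). In 4 week MAC-1+ against MAC-1- the number was 14 without the filter (1.09%) and 8 in a model of only the populations compared (1.32%). It was 11 with the GC and length offset (2.56%), which was chosen after seeing the data. In 4 week MAC-1+ against SS MAC-1- HSCs it was 1 in that model (0.168%) and 3 with the offset (1.07%). Against SS MAC-1low HSCs it was 5 without the filter (0.571%), 0 in that model (0.0087%) and 1 with the offset (0.397%). In 4 week MAC-1low against MAC-1- HSCs it was 1 with the number of detected genes as covariate. There it was 0 without the filter (0.173%), in that model (0.14%) or with the offset (0.235%). The single call in 4 week MAC-1low against SS MAC-1- HSCs became 0 under the same 4 alternatives. There the share was 0.154% without the filter, 0.0335% in that model and 0.14% with the offset. The calls of 4 week MAC-1- against SS MAC-1- or MAC-1low became 0 with the covariate and in that model (0.0619% and 0.279%). For any difference the number was 20 without the filter (7.59%) and 6 with the offset (1.29%). With each sample left out, it ran from 11 to 24 in 4 week MAC-1+ against MAC-1- (1.54% to 3.1%). It was 1 to 4 in 4 week MAC-1low against MAC-1- and 0 to 1 in 4 week MAC-1- and in MAC-1low against SS MAC-1-. It was 9 to 15 in 4 week MAC-1+ against SS MAC-1- HSCs and 2 to 10 in the same against SS MAC-1low. In 4 week MAC-1- against SS MAC-1low HSCs it was 0 to 6. By replicate number the samples showed little pairing, with correlations of -0.00 to 0.04 over 12 same-numbered pairs of a time. The order of the library names instead sets 4 week MAC-1- replicate 2 beside MAC-1low replicate 3 and MAC-1+ replicate 3. It sets MAC-1- replicate 3 beside MAC-1low replicate 4. Pairing by that order was not tested, and the replicate block does not follow it. With the replicate number as a block 21 members were called in 4 week MAC-1+ against MAC-1- (2.39%) and 5 in 4 week MAC-1+ against SS MAC-1low. That block gave 0 in 4 week MAC-1low against MAC-1- and in the comparisons of SS MAC-1- with 4 week MAC-1- or MAC-1low HSCs. Between MAC-1+ and MAC-1- HSCs at 4 weeks the sign turned for 8 of the 45 members, none of them called. These were *Cox7a2l* with DESeq2 (adjusted p = 0.999), DESeq2 size factors (edgeR adjusted p = 1.00), the covariate (0.925), the offset (0.848) and without 4 week MAC-1- replicate 2 (0.979, with 0.957 to 1.000 over all samples left out), *Cox7a1* with the covariate (0.930) and without 4 week MAC-1- replicate 1 (1.00, 0.706 to 1.00), *Sdha* without 4 week MAC-1- (0.868) or MAC-1+ replicate 1 (0.935, 0.677 to 0.971), *Sdhc* without 4 week MAC-1- replicate 3 (1.00) or MAC-1+ replicate 1 (0.993, 0.866 to 1.00), *Uqcrfs1* with the covariate (0.973), *Atp5d* with DESeq2 (0.985), limma-voom (0.982), DESeq2 size factors (0.989), no filter (1.00), the covariate (0.965), the offset (0.816) and without 4 week MAC-1- replicate 3 (0.886) or MAC-1+ replicate 2 or 3 (0.977 and 1.00, 0.886 to 1.00), *Atp5s* with the offset (0.981) and without 4 week MAC-1- (1.00) or MAC-1+ replicate 3 (0.916, 0.903 to 1.00), and *Atp5sl* with the covariate (1.00) and without 4 week MAC-1+ replicate 1 (0.998, 0.854 to 1.00). The ratio of summed levels, 4 week MAC-1+ over MAC-1-, was also read with each of the 6 samples left out. It ran from 0.560 to 0.685 for complex II, 0.520 to 0.602 for complex III and 0.298 to 0.394 for cytochrome c. For complexes IV and V it ran from 0.460 to 0.514 and 0.531 to 0.599. Under the other alternatives run on them the ratios moved by less than the spread between samples. The causes were not tested.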
